A study of Arabidopsis thaliana with 7 samples.

Results

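Intergenic binding sites of CIRCADIAN CLOCK ASSOCIATED 1 (CCA1) in Arabidopsis thaliana seedlings are described here, that is, sites outside promoters, genes and 3' ends. They are the peaks that the authors' annotation called Intergenic in either of 2 deposited lists, after peaks whose nearest gene was an rRNA gene, a tRNA gene or a pseudogene were left out. This left 218 of the 1433 peaks of the continuous light list (15.2%, 95% Wilson interval 13.4 to 17.2) and 263 of the 1607 peaks of the light-dark list (16.4%, 14.6 to 18.3).

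The plants carried CCA1 fused to green fluorescent protein (GFP) under the CCA1 promoter in the WS-2 ecotype, and were grown on MS agar under cycles of 12 h light and 12 h dark. Whole seedlings 14 days old were harvested at ZT2, that is 2 h after dawn or subjective dawn, in continuous light (LL, 3 libraries) or in the light-dark cycle (LD, 2 libraries). Chromatin was fixed with 1% formaldehyde for 20 min and precipitated with an antibody against GFP, with IgG mock and input material as controls. A library harvested at ZT14 in LL and an input library were not analysed here. Since the whole seedling was used, the cells in which a site is bound are not known.

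CCA1 is a MYB-related transcription factor that peaks at dawn and closes a feedback loop of the clock by repressing genes that are expressed towards evening. Plant transcription factors bind mostly close to transcription start sites (TSS), so sites farther out are usually assigned to a gene by nearness alone. In the authors' annotation every intergenic peak was given the gene with the nearest TSS, which need not be the gene that the site regulates.

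For each regime the authors called peaks on all its libraries together. There is thus 1 list per regime, values have no spread between replicates, and no test between regimes was possible. The LL intergenic peaks held 18 to 172 sequence tags (median 26) in windows of 158 bp, and the LD ones 32 to 184 tags (median 46) in windows of 124 bp. The score is the peak caller's own, close to the number of tags. At 160 of the 161 LL members with an overlapping LD peak the LD score was the higher one, so a pair of scores is no measure of a change in binding. Coordinates are on TAIR10, and sequences and motifs under the peaks were not analysed here. Intervals cover counting error only, and peaks are neither replicates nor independent of each other.

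The highest intergenic sites in both regimes lay upstream of AT4G33980 and AT1G70420, which the files describe only as hypothetical proteins. Neither the files nor the gene table used here gives AT4G33980 a symbol, so it was matched to no pathway list. Whether it is COR28, a symbol of the evening clock list that matched no gene, could not be checked with these sources. The LL peak at AT4G33980, on chromosome 4 from 16286169 to 16286327, was centred 1189 bp upstream of its TSS and had a score of 121. Its 141 tags (95% Poisson interval 119 to 166) were 75.8-fold over control, and it ranked 13 among all LL peaks. The LD peak at the same site, 1204 bp upstream, had a score of 183 with 182 tags (157 to 210) at 50.3-fold over control, and ranked 10. At AT1G70420, on chromosome 1, the LL peak from 26541729 to 26541887 scored 118 and ranked 15. The LD peak there, from 26541752 to 26541876, scored 194 and ranked 4, the highest of the LD intergenic peaks. Both sites thus stood among the strongest of any category, although they lay just over 1000 bp from a TSS.

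In LL the next highest intergenic sites included those of a clock gene and of stress regulators, mixed with other genes described below. In LD the next highest were at AT5G46720 and AT5G57170. The stress regulators DDF1 and HSFA6B ranked lower there, at 106 and 199 among all LD peaks. PSEUDO-RESPONSE REGULATOR 5 (PRR5, AT5G24470), a repressor of the CCA1 gene within the clock, had an LL peak of score 87 at 2266 bp upstream, on chromosome 5 from 8361060 to 8361218, 63.4-fold over control. The LD peak at that site, 2313 bp upstream, scored 120 and was 70.5-fold over control. DDF1, a DREB-type factor of the drought and cold response group, scored 82 in LL at 1143 bp upstream and 105 in LD at 1185 bp upstream. HSFA6B, which encodes a heat stress transcription factor, scored 74 in LL and 88 in LD, at 2044 and 2035 bp upstream. AT1G25550, annotated as a GARP-type repressor, had its peak on the other side of the TSS, 2939 bp downstream with a score of 81 in LL and 2862 bp downstream with 126 in LD.

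AVP1, the proton-pumping pyrophosphatase of the vacuole membrane, scored 76 in LL and 122 in LD, about 2 kb from its TSS (2089 and 2102 bp upstream). AT5G25280, a serine-rich protein-like gene, had the same LL score of 76 at a site 4766 bp upstream, and scored 93 in LD. AT5G57170, of the tautomerase superfamily, scored 73 in LL and 129 in LD, and LCR16, which encodes a small cysteine-rich protein, 69 in LL and 83 in LD. The LD list had 4 further genes among its 10 highest intergenic scores. AT5G46720, an AIG2-like gene, scored 51 in LL and 149 in LD. AT2G28507, which encodes a hypothetical protein, scored 41 in LL and 111 in LD. MYB87 scored 43 in LL and 109 in LD, and the microRNA gene MIR172a scored 41 in LL and 106 in LD. All 10 of these LL sites were also peaks in LD, and all 10 LD sites were also peaks in LL.

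**Figure D1:**
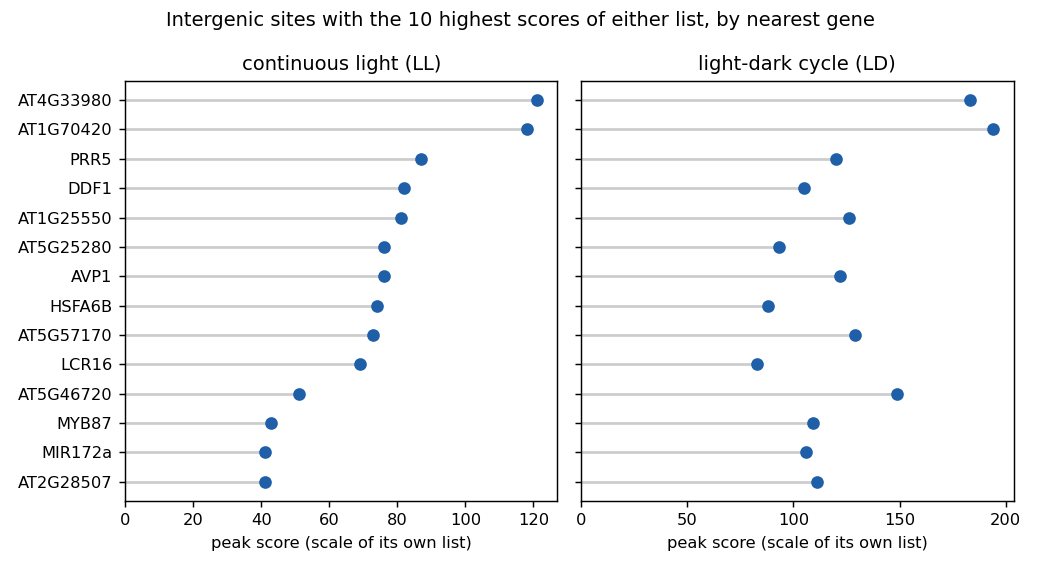
Peak score (x axis, each panel on the scale of its own list) at the sites of the 10 highest intergenic peaks of either list, named by nearest gene (y axis), in LL (left) and LD (right). AT4G33980 and AT1G70420 lead both panels, with scores of 121 and 118 in LL and of 183 and 194 in LD, and the last 4 rows are sites that were among the 10 highest in LD alone.

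Over all members, the median score was close to that of other peaks. The median LL score was 26 (95% order-statistic interval 25 to 28) for intergenic peaks and 26 (25 to 27) for the 1129 other peaks of the list after the same gene types were left out. The median LD score was 47 (45 to 49) for intergenic peaks and 47.5 (46 to 49) for the 1262 other peaks. The upper quartile was lower in intergenic peaks, at 33 against 36 in LL and 61 against 67 in LD. At 3' ends of genes it was 32.8 in LL and 57.5 in LD. Of the 100 highest peaks of each list after the same gene types were left out, 12 in LL and 11 in LD were intergenic. Among all peaks left, 218 of 1347 in LL and 263 of 1525 in LD were intergenic. The median fold over control was 12.8 (11.8 to 14.5) for intergenic and 14.1 (13.5 to 14.7) for other LL peaks, and 14.1 (13.3 to 14.9) for intergenic and 15.4 (14.8 to 16) for other LD peaks. These intervals overlapped in each regime, and the difference was not tested. For promoter peaks alone the median fold was 14.7 (14 to 15.6) in LL and 15.8 (15.1 to 16.7) in LD. That interval overlapped the intergenic one in LL and did not in LD. At 3' ends of genes the median fold was 13.2 in LL and 14.3 in LD. Control tags, which the caller scales to the library of the precipitate, had medians of 2.2 in intergenic and 2 in other LL peaks, and 3.2 in each of the LD classes.

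Intergenic sites were poorer in G and C. In the 500 bp window around the peak the median GC content was 30.7% (30.1 to 31.3) for intergenic and 32.9% (32.7 to 33.3) for other LL peaks. In LD it was 31.3% (30.9 to 31.5) for intergenic and 33.9% (33.5 to 34.1) for other peaks. The intervals did not overlap in either regime. Peaks at 3' ends of genes lay between, with medians of 32% in LL and 32.3% in LD. By chromosome, the intergenic share of the peaks left was lowest on chromosome 4 (12.2% in LL, 12.8% in LD) and highest on chromosome 1 (18.5% in LL, 19.6% in LD), with overlapping intervals.

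Most intergenic sites lay 1 to 3 kb upstream of a gene. The median absolute distance to the nearest TSS was 2141 bp (1924 to 2276, range 1008 to 7176) among LL members and 2040 bp (1848 to 2237, range 1002 to 5953) among LD members. The peak was upstream of that TSS for 176 LL peaks (80.7%, 75 to 85.4) and for 214 LD peaks (81.4%, 76.2 to 85.6). Upstream peaks had median distances of 1878 bp (LL) and 1796 bp (LD). Downstream peaks, which lie past the 3' end of the gene, had medians of 3181 bp (LL) and 3122 bp (LD). The lower end of the range is set by the annotation, in which the promoter category reached 1000 bp upstream. AT1G49230 (1008 bp, score 23) and AT2G38180 (1010 bp, score 22) were just inside the intergenic class in LL, and the blue-light receptor gene FKF1 (993 bp, score 56) was just outside it. In LD, BTI3 (1002 bp, score 34) and the dark-inducible gene DIN10 (1003 bp, score 44) were just inside, and the metal transporter gene NRAMP3 (999 bp, score 42) was just outside.

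Score did not fall steadily with distance. In LL the median scores were 27 for the 52 peaks within 1500 bp and 28 for the 47 peaks up to 2000 bp. They were 25 for the 66 peaks up to 3000 bp, 27 for the 32 peaks up to 4000 bp and 23 for the 21 peaks beyond. The LD medians over the same classes were 48 for 72 peaks, 48 for 55, 45 for 78, 50.5 for 36 and 44.5 for 22. Strong peaks occurred far out as well. SAHH2, which encodes an adenosylhomocysteinase of the methyl cycle, had a peak of score 44 in LL at 5673 bp upstream and of 97 in LD at 5683 bp upstream. The peak at CID9, which encodes a protein with a CTC-interacting domain, was not strong. It lay 5671 bp upstream in LL (score 27, intergenic median 26) and 5666 bp upstream in LD (score 40, intergenic median 47). The 2 farthest LL peaks were weak and overlapped no LD peak, at BR6OX2, a brassinosteroid oxidase gene (7176 bp upstream, score 18), and at the phloem sucrose transporter gene SUC2 (6185 bp upstream, score 23).

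**Figure D2:**
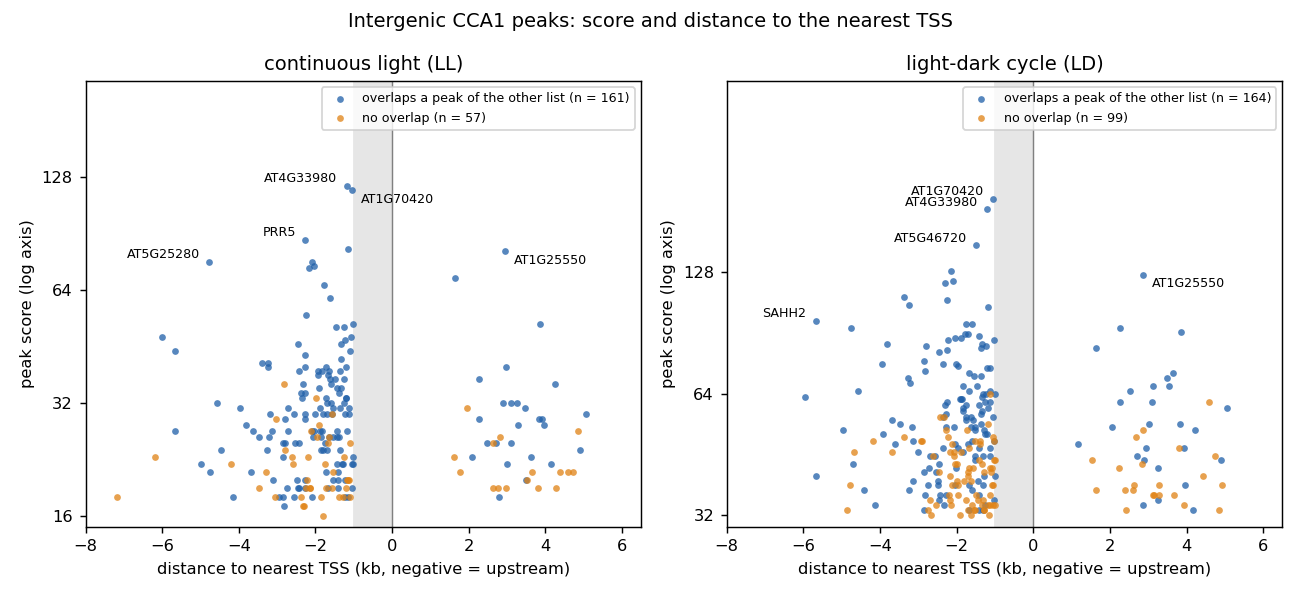
Score of each intergenic peak (y axis, log scale) against its distance to the nearest TSS (x axis, kb, negative for upstream) in LL (left, 218 peaks) and LD (right, 263 peaks), with peaks that overlap a peak of the other list in blue and the rest in orange. The grey band marks the 1000 bp upstream of the TSS that the promoter category covers, most points lie left of it, and the orange points keep to scores of at most 36 in LL and 64 in LD.

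Most intergenic sites were found in both regimes, and their sharing did not differ from that of other peaks beyond counting error. Of the LL intergenic peaks, 161 of 218 (73.9%, 67.6 to 79.2) had an LD partner, that is, an LD peak with 1 bp or more in common, where 74.7% of all LL peaks left did. Of the LD intergenic peaks, 164 of 263 (62.4%, 56.4 to 68) had an LL partner, where 66.0% of all LD peaks left did. The difference between intergenic and other peaks was -0.992 percentage points in LL (Newcombe 95% interval -7.67 to 4.99) and -4.44 points in LD (-11 to 1.79), and both intervals include 0. Partners matched closely: the centres of overlapping peaks were a median of 16 bp apart, and the nearest gene was the same for 158 of 161 LL and 159 of 164 LD peaks. The partner was itself a member for 159 peaks of each list.

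Sharing followed the score in intergenic peaks as in others. In 4 score classes of each list, 24 of 51 LL intergenic peaks (47.1%) overlapped an LD peak in the lowest class and 47 of 48 (97.9%, 89.1 to 99.6) in the highest, against 44.1% and 98.3% of other peaks. The LD shares were 25 of 71 (35.2%) in the lowest class and 51 of 51 (100%, 93 to 100) in the highest, against 35% and 96.1% of other peaks. In the second class the intergenic share was below that of other peaks, at 60.4% against 70.8% in LL and 48.4% against 55.5% in LD, with overlapping intervals.

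**Figure D3:**
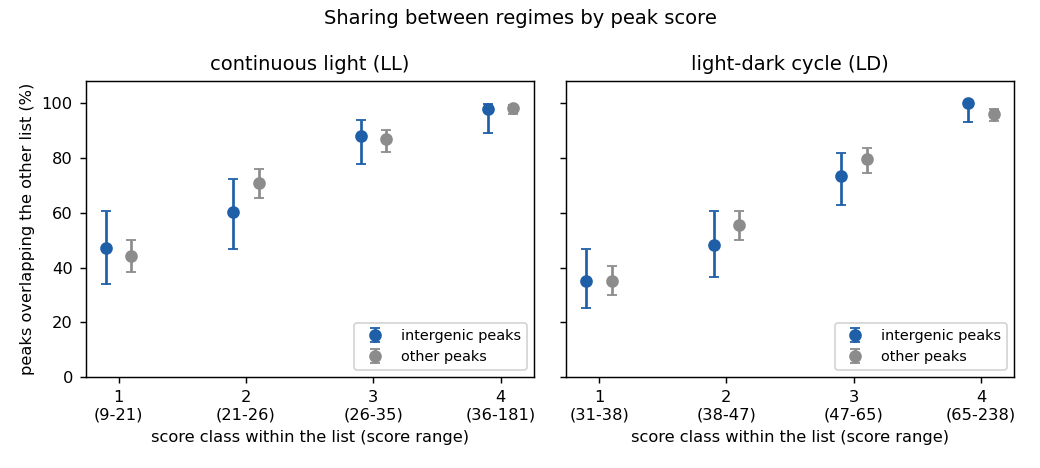
Percent of peaks that overlap a peak of the other list (y axis) in 4 score classes of each list (x axis, score range in brackets) in LL (left) and LD (right), for intergenic peaks in blue and other peaks in grey, with 95% Wilson intervals. In both panels the 2 kinds of peaks climb together, and the shares of intergenic peaks in the highest class are 97.9% in LL and 100% in LD.

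The exception in the highest LL class was a site at APETALA2 (AP2), a regulator of floral organ identity and a target of miR172. It scored 36 at 2812 bp upstream, on chromosome 4 from 17397719 to 17397877, with 33 tags (22.7 to 46.3), 9.11-fold over control, and the nearest LD peak was 12654 bp away. The other LL peaks among the 5 highest without an LD partner were weaker. CYP71B19, a cytochrome P450 gene, scored 33, with an LD peak 541 bp away. AT5G11070, a hypothetical protein gene, scored 31, with an LD peak 674 bp away. AT5G21940, also a hypothetical protein gene, scored 30 and AGL12, a MADS-box gene of roots, 29, with no LD peak within 5000 bp of either.

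The highest LD intergenic peak without an LL partner belonged to JAZ3, which encodes a JAZ repressor of jasmonate signalling. It scored 64 at 1120 bp upstream, on chromosome 3 from 6118585 to 6118709, with 64 tags (49.3 to 81.7), 27.4-fold over control, and the nearest LL peak was 24688 bp away. MYB3, a repressor of phenylpropanoid genes, scored 61 in LD at 4574 bp downstream, but an LL peak of score 27 lay 283 bp from it. MYB59 scored 56 at a site 785 bp from an LL peak. AT1G68360, a zinc finger gene, scored 56 and AT5G67411, annotated as a GRAS family factor, scored 54, with LL peaks 66950 and 2968 bp away.

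In all, 57 LL and 99 LD intergenic peaks had no partner, with median scores of 21 and 40, below the medians of 30 and 55 for those with one. Of these, 40 in LL and 81 in LD had no peak of the other list within 500 bp and none at their nearest gene. A site that just missed the caller's threshold in a regime is counted as absent from it, so these counts do not show that binding was confined to a regime. LL members had 207 different neighbours and LD members 247, with 155 genes in both, which are 74.9% of the LL and 62.8% of the LD genes. The same overlap over all genes with a peak was not computed. By peaks rather than genes, 74.7% of all LL and 66.0% of all LD peaks left had a partner, so the gene overlap is no trait of intergenic sites. At 149 of these 155 genes an LL and an LD intergenic peak overlapped. The other 6 were MYB3, TIC, AT5G11070, HB23, AT5G45350 and COL5. Their closest LL and LD centres were 143 bp apart at HB23, 157 bp at AT5G45350, 283 bp at MYB3 and 674 bp at AT5G11070. The distance was 1527 bp at TIC and 4401 bp at COL5. TIC, the clock gene TIME FOR COFFEE, had an LL peak 1176 bp upstream and an LD peak 2703 bp upstream, with scores of 20 and 35. COL5, a CONSTANS-LIKE gene of the B-box family, had an LL peak of score 21 at 1536 bp upstream and an LD peak of score 52 at 2865 bp downstream.

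Several genes carried more than 1 intergenic site. There were 10 such genes in LL and 14 in LD, and 7 were in both lists: RAV1, ELP, EDA12, AT3G27210, AFP3, AT3G60520 and MYB73. RAV1, which encodes a factor with an AP2 and a B3 domain that represses growth and flowering, had 3 in each regime and no peak of another category. In LL these lay 5993, 2457 and 1248 bp upstream with scores of 48, 46 and 51. In LD they lay 5953, 2456 and 1236 bp upstream with scores of 63, 81 and 84, and each overlapped its LL counterpart. The outermost RAV1 peak was on chromosome 1 from 4536096 to 4536254 in LL and from 4536153 to 4536277 in LD.

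AFP3, which encodes a Ninja-family protein of the group that binds factors of abscisic acid signalling, had a pair of sites in each regime. They scored 34 at 2266 bp and 32 at 1694 bp upstream in LL, and 57 at 2275 bp and 72 at 1691 bp upstream in LD. AFP3 also had an LD promoter peak of score 32 at 329 bp upstream, without an LL partner. AT3G27210, a hypothetical protein gene, had LL scores of 27 and 40 and LD scores of 45 and 51 at its 2 intergenic sites, besides a promoter peak of score 25 in LL and 54 in LD. AT3G60520, also a hypothetical protein gene, had 2 intergenic peaks in LL (24 and 30) and 3 in LD (38, 37 and 82), and a promoter peak in both. EDA12, named for embryo sac development, had scores of 22 and 18 in LL and of 52 and 34 in LD at sites more than 4000 bp upstream. MYB73 scored 19 and 24 in LL and 36 and 38 in LD. ELP, an extensin-like gene, had a second site 3277 bp downstream in LL (score 28) and 1727 bp upstream in LD (score 52). The LL site had an LD partner of score 35, which the annotation gave to AT1G12080, and the LD site at 1727 bp had no LL partner. ELP also had an LD peak of score 33 at its 3' end, without an LL partner.

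**Figure D4:**
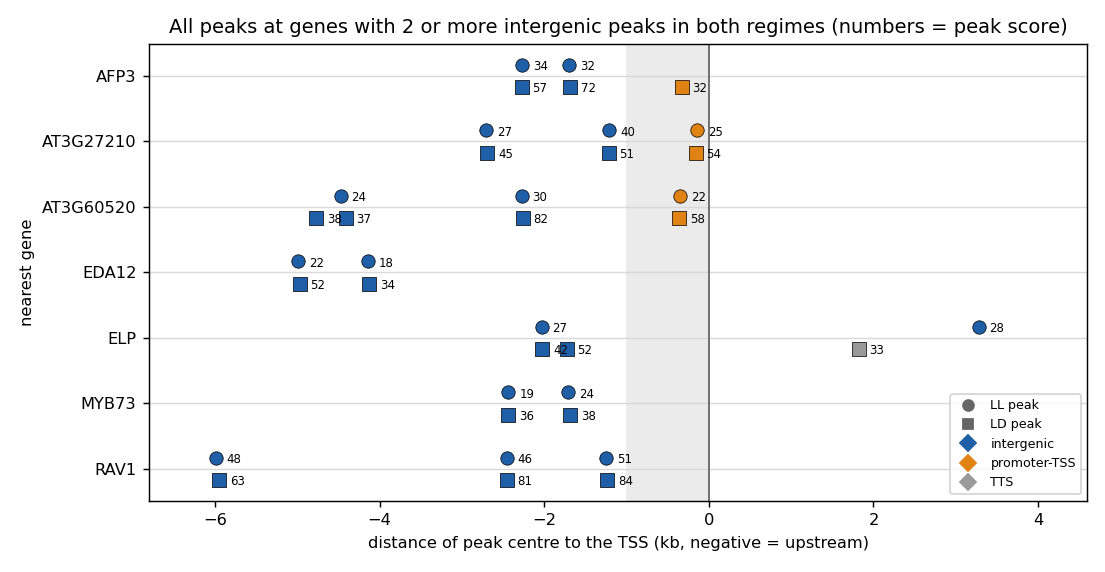
Positions of all peaks at the 7 genes with 2 or more intergenic peaks in both regimes (y axis), as distance of the peak centre to the TSS (x axis, kb, negative for upstream), with LL peaks as circles above LD peaks as squares, the category by colour and the score beside each symbol. LL and LD intergenic peaks stand above each other at most sites, and RAV1 has 3 intergenic sites in each regime and no promoter peak (grey band, 1000 bp upstream).

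PRR5 combined near and far sites. In LL its intergenic peaks at 2266 bp (score 87) and 1061 bp upstream (score 48) stood beside promoter peaks of score 98 at 386 bp upstream and 44 at 89 bp downstream. In LD the intergenic peak at 2313 bp upstream (score 120) stood beside promoter peaks of 75 at 943 bp upstream, 130 at 370 bp upstream and 74 at 80 bp downstream. The LL peak at 1061 bp and the LD peak at 943 bp overlapped, so overlapping peaks were intergenic in LL and in the promoter category in LD. Their centres were 118 bp apart, the widest offset among LL intergenic peaks with a partner, and whether they mark a single site was not tested.

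Most members had no promoter peak at the same gene. The nearest gene also had a promoter peak in the same list for 28 LL intergenic peaks (12.8%, 9.04 to 17.9) and 31 LD ones (11.8%, 8.43 to 16.2). For peaks at 3' ends the corresponding shares were 9.22% (5.98 to 14) in LL and 7.44% (4.63 to 11.7) in LD. When any second peak at the gene was counted, intergenic ones included, the shares of intergenic peaks were 23.9% in LL and 24.3% in LD.

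Genes described as transcription factors were more common next to intergenic sites than next to other peaks. Their descriptions were searched for 23 words, a rule chosen after values had been seen. Of the 207 nearest genes in LL, 41 (19.8%, 14.9 to 25.8) met it, against 87 of 1032 genes (8.43%, 6.89 to 10.3) that had other peaks only. In LD, 51 of 247 (20.6%, 16.1 to 26.1) did, against 83 of 1147 (7.24%, 5.88 to 8.88). The difference was 11.4 percentage points in LL (Newcombe interval 6.18 to 17.5) and 13.4 points in LD (8.54 to 19.1). With the words transcription factor alone it was 4.52 points in LL (0.765 to 9.55) and 6.4 points in LD (2.82 to 11). Among the genes that met the rule, 36 were in both lists.

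Over all upstream peaks the share was higher beyond 2000 bp than nearer to the TSS. In LL it was 7.71% of 402 genes with a peak within 250 bp, 9.55% of 157 up to 500 bp, 12.5% of 176 up to 1000 bp and 11.4% of 140 up to 2000 bp. It was 27.3% of 66 LL genes at 2000 to 3000 bp and 27.3% of 33 beyond. In LD it was 8.86% of 440 genes, 8.33% of 156, 10.5% of 190 and 14.1% of 170 in the first 4 classes, and 26.4% of 72 and 28.1% of 32 in the last 2. A gene can be nearest to a distant peak only where the region upstream of it is long, and the part of that length in these shares was not tested.

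**Figure D5:**
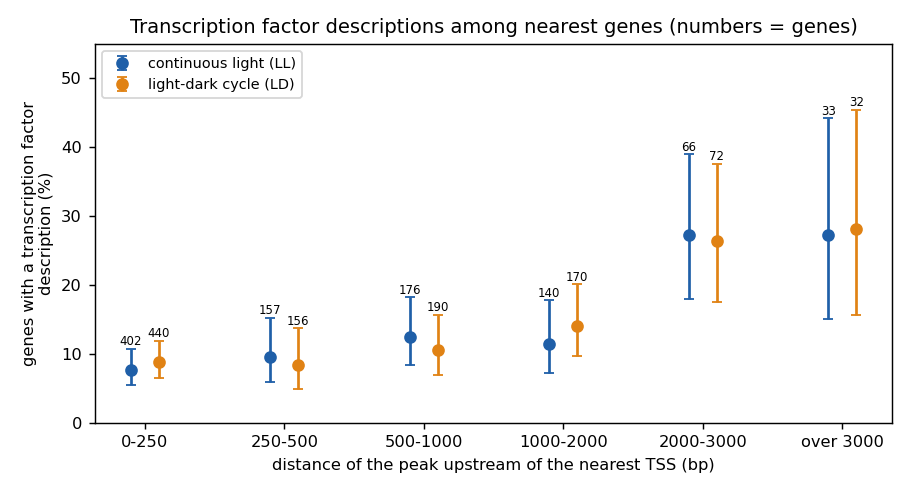
Percent of nearest genes with a transcription factor description (y axis) by distance of the peak upstream of the TSS (x axis, bp), for all peaks of LL (blue) and LD (orange) after rRNA, tRNA and pseudogene neighbours were left out, with 95% Wilson intervals and the number of genes above each. Shares stay below 15% up to 2000 bp and stand at 27.3% in LL and 26.4% in LD between 2000 and 3000 bp.

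Factors of many families were among them. The MYB family had MYB87 (43 in LL, 109 in LD), MYB70 (38 in LL, 47 in LD), MYB112 (23 in LL, 72 in LD), MYB59, MYB73, MYB3 and the anthocyanin regulator MYB90 (27 in LL, 49 in LD). Homeobox genes included HB6, a regulator of abscisic acid responses, 4261 bp downstream with a score of 36 in LL and 4223 bp downstream with 52 in LD. HB21 scored 30 in LL at 3188 bp upstream and 53 in LD at 3157 bp upstream. The NAC gene NAC083 scored 31 in LL and 53 in LD, and WRKY27 scored 26 in LL and 54 in LD. SPATULA (SPT), a bHLH gene of carpel and seed development, scored 21 in LL at 3687 bp upstream and 55 in LD at 3675 bp upstream. ANT, an AP2-like regulator of organ growth, had 2 LD peaks of score 49 and none in LL.

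After rRNA genes, tRNA genes and pseudogenes were left out, all remaining neighbours of intergenic peaks that do not code for protein were microRNA genes. They were nearest to 4 of 218 LL intergenic peaks (1.83%, 0.716 to 4.62) and to 5 of 263 LD ones (1.9%, 0.815 to 4.37). Among other peaks they were nearest to 0 of 1129 in LL, which allows a share of up to 0.266% by the limit of 3 counts (the Wilson bound is 0.339%), and to 2 of 1262 in LD (0.158%). MIR172a, whose product lowers the AP2-like floral repressors, had an LL peak of score 41 at 3228 bp upstream, 15.7-fold over control. The LD peak at that site, 3238 bp upstream, scored 106 and was 22.4-fold over control. MIR164b, whose product targets NAC genes, scored 32 in LL and 55 in LD, about 1.6 kb out (1583 and 1582 bp upstream). MIR393b, whose product targets auxin receptors, scored 31 in LL at 1133 bp upstream and 65 in LD at 1129 bp upstream. The LL list alone had a peak at MIR172b (score 21), and the LD list alone had peaks at MIR167a (40) and MIR396b (37).

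The AP2-like targets of miR172 were looked at after values had been seen. Of 6 such genes, 3 had an intergenic LL peak and 2 an intergenic LD peak, out of 5 in LL and 4 in LD with a peak of any kind. These few genes give no more than a description. SMZ (SCHLAFMUTZE), a repressor of flowering, scored 38 in LL at 1671 bp upstream and 90 in LD at 1703 bp upstream. TOE2 scored 30 in LL at 2014 bp upstream and 76 in LD at 2018 bp upstream. AP2 had the LL site described above. SNZ had promoter peaks of 26 in LL and 39 in LD, TOE1 had peaks at its 3' end of 24 in LL and 35 in LD, and TOE3 had none.

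Some neighbours belonged to pathway lists. In 14 lists with 280 gene symbols, 265 symbols matched 264 genes. Of those with a peak of any kind, 10 of 76 were nearest to an intergenic peak in LL (13.2%, 7.31 to 22.6) and 12 of 81 in LD (14.8%, 8.68 to 24.1). Among all genes with a peak, 207 of 1239 were in LL (16.7%, 14.7 to 18.9) and 247 of 1394 in LD (17.7%, 15.8 to 19.8), so the lists were close to the background. The morning clock list had 2 members in both regimes. RVE1, a relative of CCA1 that regulates auxin levels and freezing tolerance, scored 61 in LL at 1633 bp upstream and 95 in LD at 1611 bp upstream. RVE2 scored 30 in LL at 2551 bp upstream and 38 in LD at 2480 bp upstream. PRR5 and RAV1 stood for the pseudo-response regulators and for photoperiodic flowering, with CDF2, a DOF repressor of CONSTANS, in LD (score 34, 1174 bp upstream, no LL partner), and COL5 for the B-box genes.

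The 5 hormone lists together had 5 of 21 genes with an LL peak (23.8%, 10.6 to 45.1) and 6 of 19 with an LD peak (31.6%, 15.4 to 54) at intergenic sites, with intervals that include the shares over all genes. For jasmonate, JAZ1 scored 46 in LL at 1342 bp upstream and 85 in LD at 1340 bp upstream, besides JAZ3 in LD. For cytokinin, the response regulator ARR7 scored 31 in LL and 54 in LD. For abscisic acid, the receptor gene PYL8 (RCAR3 in the files) scored 30 in LL at 1797 bp upstream and 56 in LD at 1761 bp upstream. For gibberellin, GA2OX1 (ATGA2OX1 in the files), whose product inactivates the hormone, scored 22 in LL and 40 in LD. For auxin, SAUR16 (AT4G38860) scored 18 in LL and 34 in LD. The evening clock, light signalling, cold response, starch and photosynthesis lists had 0 members at intergenic peaks in either regime. Of their members, 9, 7, 10, 8 and 4 in LL and 8, 7, 13, 9 and 5 in LD had a peak of another category. Among all genes with a peak the intergenic share was 16.7% in LL and 17.7% in LD. With so few genes per list, each 0 is no more than a description. These counts cover matched symbols only. COR28 of the evening clock list was among the 15 symbols without a match, and AT4G33980 has no symbol in the sources used here, so the 0 does not speak to either. Whether AT4G33980 is COR28 could not be checked with these sources. If it is, the evening clock list has a member at an intergenic peak in both regimes. DDF1 is not on the cold response list.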

How the data were processed

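ChIP-seq peak lists of 2 light regimes were analysed, with groups taken from the sample labels. The tools named for the reads and peaks are Trimmomatic 0.33, Bowtie2 2.2.1, HOMER 4.7 and CASAVA 1.8, with TAIR10 as the genome build, per the submitters' processing notes. Per the file headers, the peaks are the top set that an irreproducible discovery rate step left from each regime's combined data, and they were annotated with HOMER's annotatePeaks.pl with the tair10 genome and a window of 500 bp. Neither the control library nor the total number of tags is stated in the sources used here. For each peak the authors deposited its score, its tag count, the normalised and the control tags as signal, the fold ratio over control and over the surrounding region, a focus fraction, and p-values that were not used. Per the file headers, the deposited annotation gave category, nearest gene, distance to its TSS and GC content as a fraction, printed as percent. The normalised value was 7.48 times the tag count in LL and 3.44 times in LD. Scores and folds were used within their own list, with 0 per-sample columns left unused.

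From these, peaks with the annotation Intergenic were kept, less 53 in LL and 48 in LD beside pseudogenes, rRNA genes or tRNA genes. A peak was shared when it had 1 bp or more in common with a peak of the other list. Intervals at 95% were Wilson for shares, Newcombe for differences, order statistics for medians and exact Poisson for tags. Copies made by PCR are not independent molecules, so these intervals cover counting error only. Scripts used Python 3.11.15, pandas 2.3.3, numpy 2.4.6 and scipy 1.17.1, and were tested on simulated data. Gene names came from the files and from a RefSeq gene table (TAIR10.1, GCF_000001735.4), without its coordinates, which held the nearest gene of 213 LL and 253 LD members. Neighbouring genes were read from the order of genes in that table, and the side of a peak from pairs of peaks at a gene, within a list or between the lists.

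The members and the gene lists were chosen with earlier results of these data known. Genes were named by rule: those of the 10 highest intergenic peaks of each list, the 5 highest without a partner, the 3 farthest, up to 5 genes with the most intergenic peaks, and up to 4 members of each gene list. Chosen after their values were seen were the transcription factor and microRNA genes and their search words, the miR172 targets, TIC, HB23 and AT5G45350, MYB73, AT3G60520 in LL, and the neighbouring genes. The motif search planned for the peaks was not run, and sequences are not analysed here. Alternatives were the peaks in the upper 50% by score, all gene types kept, peaks at least 2000 bp from a TSS, lists without organelle peaks, an overlap of 50% of both peaks, centres within 500 bp, total tags for the score and any other peak at the gene. All alternatives for the gene lists and for the transcription factor difference were added after the data were seen.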

Additional observations from a re-analysis of the deposited data

Results flagged for a closer look

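The intergenic peaks left out of the members, beside pseudogenes, rRNA genes or tRNA genes, are data that the comparisons above do not use. Every deposited peak lay over control (lowest fold 4.01 in LL, 4.08 in LD), so that they do so too is no result of its own. Their median fold over control was 9.25 for the 53 LL peaks (8 to 10.3) and 5.93 for the 48 LD peaks (5.33 to 7.92). Their median control tags were 3.8 in LL and 8.3 in LD, against 2.2 and 3.2 in members. Their median tags were also higher, at 36 in LL and 52.5 in LD against 26 and 46 in members. The part of control tags in the lower folds was not tested. The peaks left out had median scores of 28 in LL and 54.5 in LD, and median GC contents of 36.7% in LL and 37.1% in LD.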

How the results depend on the processing

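Of 72 values recomputed under alternatives, 52 stayed within their interval or within 1.5 times a count and 20 moved. Only the transcription factor difference could change sign, and it did not. The values that stayed include all 14 without organelle peaks, a setting that dropped no member and so could hardly move them. Among peaks in the upper 50% by score, the median score was 33 in LL and 61 in LD, the median fold over control 16.4 and 18.8, and the share of peaks whose gene also had a promoter peak 9.01% and 6.98%. With all gene types kept, the intergenic share was 18.9% in LL and 19.4% in LD, and the LD median fold 13.2. At least 2000 bp from the TSS, that share was 8.3% in LL and 8.46% in LD, the median distance 2849 and 2842.5 bp, and genes of the pathway lists numbered 3 and 4. The transcription factor difference there was 17.8 points in LL. The words transcription factor alone gave 4.52 points in LL and 6.4 in LD. Any other peak at the gene gave 23.9% in LL and 24.3% in LD. These moves follow from which peaks, genes or words each setting counts. Sharing was 68.8% in LL and 57.8% in LD with 50% overlap, and 75.7% and 65% with centres within 500 bp. No replicate was left out, since each list pools its libraries. No paired analysis was possible because the deposited columns carry no replicate number. Depth limits what is called: the weakest members held 18 tags in LL and 32 in LD.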

Other observations

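An intergenic peak has a gene on either side, and the farther one was not the annotated neighbour. The side of a peak was read for 158 LL and 164 LD members from pairs of peaks at the same gene. For 97 members of each list that pair was the gene's single LL and single LD peak, and the other 61 LL and 67 LD members were at genes with several peaks in a list. The next protein-coding gene on that side also had a peak of the same list for 22 LL and 23 LD members, and a promoter peak for 10 and 7. No such count was made for other peaks, so these numbers have no background. Some pairs were counted from both sides, such as ATS3 and GA20OX3, which each had an intergenic peak. At SAHH2 the peak lay between that gene and GAE6, a divergent gene of pectin precursor synthesis that had a promoter peak in both lists.

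Some of these farther genes belong to the pathway lists and had no peak of their own. They were next to 5 LL and 6 LD members, a count that was not made for other peaks. The AT1G25550 site (score 81 in LL, 126 in LD) lay on the side of TEM1, a RAV-family repressor of flowering. The CID9 site (27 in LL, 40 in LD) lay on the side of NCED3, a rate-limiting enzyme of abscisic acid synthesis. AT5G45350 had its peaks (21 in LL, 40 in LD) on the side of CYP707A3, which breaks abscisic acid down. VHA-A3 had them (26 in LL, 83 in LD) on the side of the B-box gene BZS1, and the peak at AT2G21300 (38, LD) was on the side of BBX18. The SAUR gene AT4G34770 had peaks (40 in LL, 70 in LD) on the side of AT4G34760, of the auxin list. Which gene a site acts on was not tested.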
